A study of Mus musculus with 14 samples.

Results

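The T cell receptor complex and regulatory T genes described here are *Cd3d*, *Cd3e*, *Cd3g* and *Cd247*, which encode the CD3 and zeta chains, the coreceptor genes *Cd4*, *Cd8a* and *Cd8b1*, the kinase gene *Lck*, and *Foxp3* and *Ctla4*, which mark regulatory T cells. They were picked by gene name, and all 10 were found among the 24270 genes of the deposited table and passed the filter on low values. Lungs came from C57BL/6 mice that were wild type (*Mcemp1*+/+, WT) or lacked *Mcemp1* (*Mcemp1*-/-, knockout, KO), the gene of a mast cell membrane protein, through a germline CRISPR-Cas9 frameshift in its first exon. Mice of 6 to 8 weeks received ovalbumin (OVA) by intraperitoneal injection on days 1, 4 and 7, were challenged through the nose from 5 days later, weekly for 8 weeks, and served as a chronic asthma model, whereas controls of each genotype received saline at every step. RNA sequencing covered 3 saline WT, 4 OVA WT, 3 saline KO and 4 OVA KO libraries, named below by group and replicate number as in OVA WT 2. The comparisons ask whether T cell transcripts of the lung differ after OVA, between genotypes, and between the OVA responses of the genotypes.

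A T cell recognizes antigen through a receptor whose variable chains carry no signalling tail of their own, so that the CD3 gamma, delta and epsilon chains and the zeta chain pass the signal on. The coreceptors CD4 and CD8 bind class II and class I MHC molecules and bring LCK, the kinase that phosphorylates the signalling motifs of these chains, to the receptor. FOXP3 is the lineage factor of regulatory T cells, and CTLA4 is an inhibitory receptor that competes with CD28 for its ligands and is carried by regulatory T cells and by conventional T cells after activation.

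On GRCm38 (GENCODE M21), *Cd3g*, *Cd3d* and *Cd3e* lie next to each other on chromosome 9, with *Cd3g* on the minus strand (44969572 to 44980431), *Cd3d* on the plus strand (44981786 to 44987339) and *Cd3e* on the minus strand (44998740 to 45009627). The transcription starts of *Cd3g* and *Cd3d* face away from each other, 1355 bases apart. *Cd8b1* (71322788 to 71337494) and *Cd8a* (71373427 to 71379173) share the plus strand of chromosome 6 with a gap of 35933 bases, and *Cd4* lies elsewhere on that chromosome (124864692 to 124888221, minus strand). *Cd247* (165788681 to 165877277) and *Ctla4* (60887000 to 60915832) are on the plus strand of chromosome 1, *Lck* is on the minus strand of chromosome 4 (129548344 to 129573641) and *Foxp3* is on the plus strand of the X chromosome (7573644 to 7595245). For 5 of the genes the annotation places another gene within or across them. Whether strand was used in counting is not given in the sources used here, so reads of overlapping transcripts cannot be told apart. *Foxp3* overlaps *Ccdc22*, a subunit of an endosomal complex, at 10.5 to 16.3, and *Cd247* overlaps *Pou2f1*, a broadly expressed transcription factor gene, at 28.3 to 40.8. Gm48719, which overlaps *Cd3e*, was at no more than 0.543, Gm37469, which overlaps *Cd247*, at no more than 0.317 and *Flicr*, which overlaps *Foxp3*, at no more than 2.88.

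The 250 bases before the transcription start are shown for *Cd3g* and *Cd3d*, neighbours that share an intergenic stretch, and for the regulatory T genes *Ctla4* and *Foxp3*. They are RefSeq windows on GRCm38.p6, read 5′ to 3′ on the strand of the gene, and RefSeq held 10 such windows for 8 of the genes. Capitals mark matches to any of 7 motifs searched on both strands. These were the core of an NFAT site written GGAAAA, the RUNX motif TGTGGT, the E-box CAGCTG, the AP-1 motif TGAGTCA, the cyclic AMP element TGACGTCA, the ETS motif CCGGAA and the TATA box TATAAA. The capitals TTTTCC are the NFAT core read on the other strand.
Cd3g chr9:44980432-44980681, minus strand: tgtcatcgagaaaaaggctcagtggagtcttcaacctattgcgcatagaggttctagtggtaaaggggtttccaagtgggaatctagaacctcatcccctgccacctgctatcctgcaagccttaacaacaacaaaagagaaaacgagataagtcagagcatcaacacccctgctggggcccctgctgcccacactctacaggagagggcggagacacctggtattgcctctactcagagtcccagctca
Cd3d chr9:44981536-44981785, plus strand: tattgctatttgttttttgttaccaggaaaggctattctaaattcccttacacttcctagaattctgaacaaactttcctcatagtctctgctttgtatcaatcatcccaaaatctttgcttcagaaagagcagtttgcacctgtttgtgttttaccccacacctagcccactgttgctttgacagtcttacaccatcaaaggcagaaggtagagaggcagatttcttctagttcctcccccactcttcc
Ctla4 chr1:60908775-60909024, plus strand: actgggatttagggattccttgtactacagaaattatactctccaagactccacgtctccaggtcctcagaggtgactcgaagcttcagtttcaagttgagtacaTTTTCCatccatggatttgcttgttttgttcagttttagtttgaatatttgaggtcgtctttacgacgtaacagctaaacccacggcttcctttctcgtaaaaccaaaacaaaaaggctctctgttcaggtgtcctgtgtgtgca
Foxp3 chrX:7580233-7580482, plus strand: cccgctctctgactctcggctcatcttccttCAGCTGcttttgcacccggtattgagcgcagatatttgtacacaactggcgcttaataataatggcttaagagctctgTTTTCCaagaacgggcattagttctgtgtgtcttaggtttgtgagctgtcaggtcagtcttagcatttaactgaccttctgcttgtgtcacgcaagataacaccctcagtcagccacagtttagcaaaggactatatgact

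The NFAT core stood in the windows of *Ctla4* and *Foxp3*, which are 2 of the 10 windows, against 20.4% of 32851 mouse windows of this length. CAGCTG stood in the *Foxp3* window and in 4271 of the 32851 windows. None of the motifs searched was found in the windows of *Cd3g* and *Cd3d*, and of the other 6 windows 1 of *Lck* held TGTGGT and the second one of *Foxp3* held TATAAA. The RefSeq starts of *Ctla4* and of this *Foxp3* window lie 22025 and 6839 bases downstream of the first base of the GENCODE gene.

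Estimated depth was 47.3 to 67.1 M reads per library. *Mcemp1* itself was at 9.84 to 20.1 in the WT and 3.50 to 4.98 in the KO libraries, and reads outside the deleted bases check the label only in part. The labels give lung as the tissue, although their extraction note names PCMC, mast cells grown from peritoneal cells. *Sftpc*, the surfactant protein C gene of alveolar type 2 cells, was at 6619 to 12361 and *Cpa3*, a mast cell protease gene, at no more than 1.25. The summed level of 5 lung epithelial genes was 32293 to 40853 in the saline, 14075 to 22499.6 in the OVA WT and 22197 to 31356 in the OVA KO libraries. *Scgb1a1* alone was at 19857 to 29526 in the saline libraries, and at 4346 to 7511 in OVA WT and 7332 to 16109 in OVA KO. *Sftpc* overlapped between these groups, at 8617 to 11256 in saline, 6619 to 11925 in OVA WT and 10036 to 12361 in OVA KO. The sum thus does not stand for all 5 genes. The summed level of 5 pan-leukocyte genes was 339 to 376 in the saline, 440 to 1034 in the OVA WT and 418 to 592 in the OVA KO libraries, so this list moved with OVA as the T cell genes did, and its part in their differences was not tested. The summed level of 5 heart muscle genes was 608 to 1025 in saline WT, 261 to 528 in saline KO, 35.7 to 122 in OVA WT and 103 to 386 in OVA KO, and its part was not tested either. In bulk lung RNA, more T cells and more of a transcript per T cell cannot be told apart.

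One library stood apart. OVA WT 2 held the highest value of all 14 libraries for each of the 10 genes, and the results of the 10 genes are therefore given with and without it. Values below are the deposited normalized counts, in the order of the replicate numbers.

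*Cd3d* encodes the delta chain of CD3. *Cd3d* was at 4.82, 6.92 and 5.74 in saline WT, 8.83, 33.1, 8.75 and 7.59 in OVA WT, 8.35, 7.24 and 8.52 in saline KO and 10.5, 13.3, 9.68 and 11.1 in OVA KO. Apart from OVA WT 2, the highest value was in OVA KO 2 and the lowest in saline WT 1. Neither the OVA WT nor the saline KO values overlapped those of saline WT, and every OVA KO library lay above every saline KO library. *Cd3e*, the gene of the epsilon chain, was at 6.21, 6.44 and 4.44 in saline WT, 7.40, 36.2, 7.28 and 6.62 in OVA WT, 6.77, 6.50 and 8.34 in saline KO and 10.6, 12.8, 7.59 and 13.4 in OVA KO. OVA KO 3 was below saline KO 3, so that the KO groups overlapped, whereas the WT groups did not. *Cd3g*, the gene of the gamma chain, was at 6.07, 6.41 and 5.35 in saline WT, 7.66, 31.98, 7.34 and 7.97 in OVA WT, 6.60, 7.22 and 8.08 in saline KO and 11.8, 12.3, 8.55 and 12.9 in OVA KO. OVA and saline did not overlap in either genotype, and among OVA KO libraries OVA KO 3 was again the lowest. *Cd247*, the gene of the zeta chain, was at 4.37, 3.64 and 2.77 in saline WT, 5.93, 16.8, 5.56 and 4.34 in OVA WT, 4.17, 4.32 and 4.52 in saline KO and 6.65, 7.44, 5.09 and 6.34 in OVA KO. OVA WT 4 fell just below saline WT 1, and the KO groups did not overlap.

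*Lck*, the kinase gene, was at 9.25, 10.9 and 9.49 in saline WT, 14.4, 57.8, 11.5 and 11.8 in OVA WT, 13.3, 11.4 and 12.0 in saline KO and 17.1, 19.5, 12.3 and 17.1 in OVA KO. WT groups did not overlap, and OVA KO 3 was below saline KO 1. *Cd4* marks helper and most regulatory T cells and is also transcribed in some myeloid cells. Its values were 4.39, 4.67 and 3.93 in saline WT, 6.74, 28.4, 7.13 and 5.65 in OVA WT, 4.61, 5.21 and 4.96 in saline KO and 11.4, 8.71, 6.72 and 12.4 in OVA KO. In both genotypes every OVA library lay above every saline library, with OVA KO 4 and OVA KO 1 the highest after OVA WT 2.

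*Cd8a* encodes the alpha chain that is found in both forms of CD8, and *Cd8b1* the beta chain that pairs with it on conventional cytotoxic T cells. *Cd8a* was at 4.17, 6.14 and 4.86 in saline WT, 6.29, 48.6, 5.86 and 6.15 in OVA WT, 6.40, 6.05 and 6.13 in saline KO and 7.34, 11.2, 5.49 and 8.04 in OVA KO. *Cd8b1* was at 2.19, 2.90 and 1.92 in saline WT, 3.14, 19.3, 2.30 and 1.82 in OVA WT, 3.00, 2.81 and 3.54 in saline KO and 2.68, 4.74, 2.97 and 3.86 in OVA KO. For both CD8 genes the OVA and saline values overlapped in each genotype, and the next highest library after OVA WT 2 was OVA KO 2.

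*Foxp3*, the lineage factor gene, was at 1.51, 1.54 and 1.82 in saline WT, 2.17, 6.14, 2.71 and 2.39 in OVA WT, 2.16, 1.86 and 1.79 in saline KO and 2.54, 2.20, 2.33 and 2.19 in OVA KO. OVA values lay above saline values in both genotypes, in KO by a margin smaller than the range within either group. *Ctla4*, the gene of the inhibitory receptor, was at 2.07, 1.74 and 1.42 in saline WT, 6.34, 25.1, 8.00 and 9.60 in OVA WT, 3.00, 2.01 and 2.13 in saline KO and 11.7, 8.25, 6.62 and 5.62 in OVA KO. The 8 OVA libraries lay between 5.62 and 25.1 and the 6 saline libraries between 1.42 and 3.00, so that treatment separated all libraries of both genotypes.

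**Figure D1:**
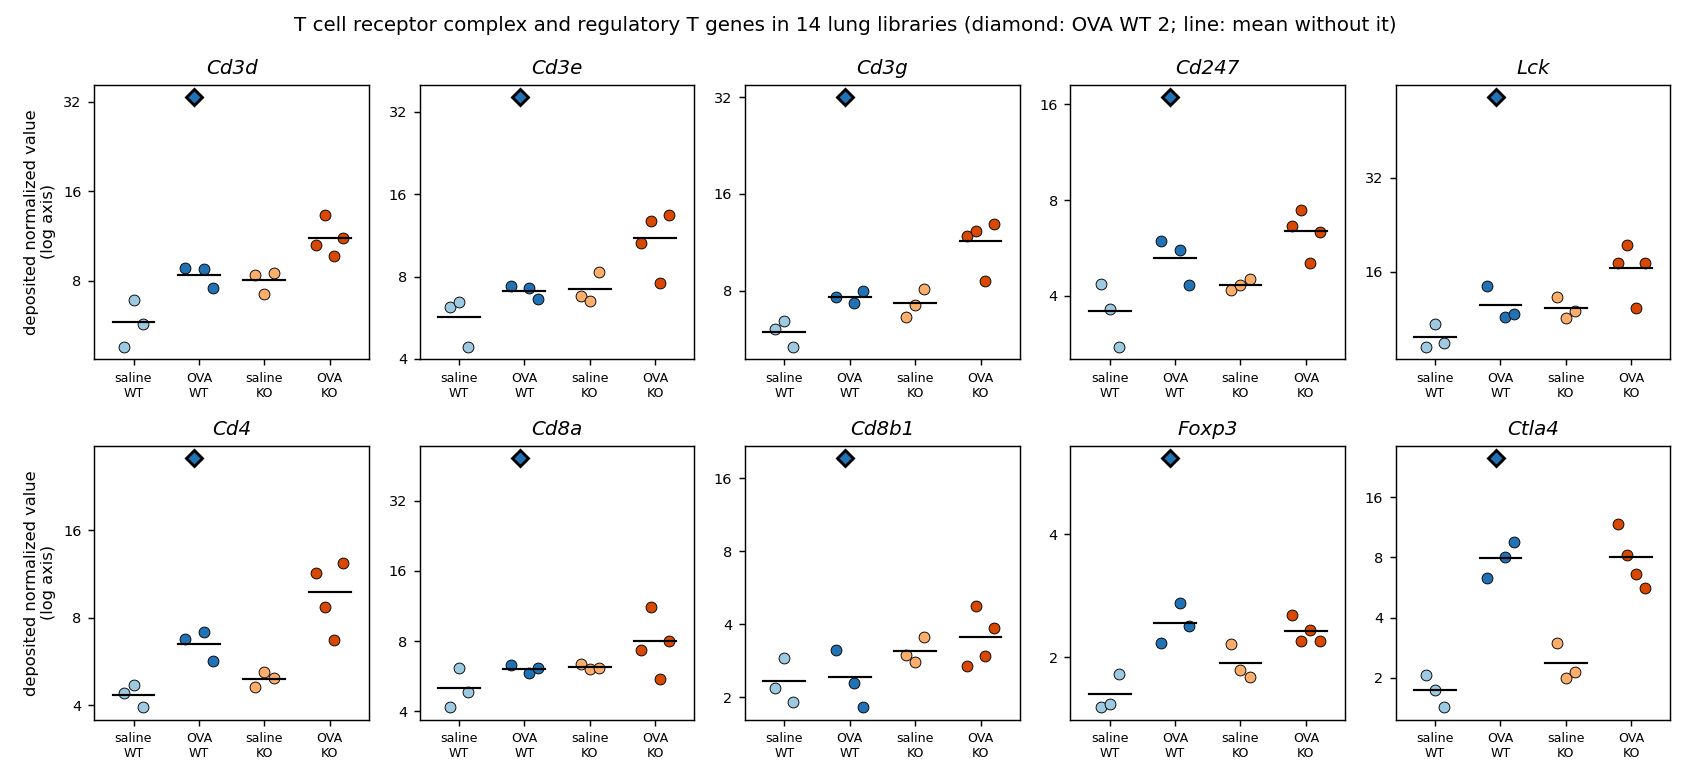
Deposited normalized values (log axis) of the 10 genes in each library, by group, with OVA WT 2 as a diamond and the arithmetic mean of the other libraries of a group as a line. OVA WT 2 is the highest library in every panel, and only for *Ctla4* do the other OVA libraries stand far above the saline libraries.

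In OVA WT 2 the 10 genes were 2.53 to 8.00 times as high as the mean of the other 3 OVA WT libraries, with a median of 4.27, against a median of 1.01 over the 22828 genes tested. All 10 were at least 2-fold higher, as were 8.31% of the genes tested, and all 10 were above the 13 other libraries, as were 15.3% of the genes tested. The CD8 genes were the furthest away, with *Cd8b1* at 8.00-fold and *Cd8a* at 7.96-fold. *Cd3e* was 5.10-fold, *Lck* 4.60-fold, *Cd4* 4.36-fold, *Cd3g* 4.18-fold and *Cd3d* 3.95-fold higher. *Cd247* at 3.19-fold, *Ctla4* at 3.14-fold and *Foxp3* at 2.53-fold were the lowest of the 10. The 11 overlapping genes were at 0.894 to 5.49 times the mean of the same libraries, with Gm48719 the highest at 5.49, Gm37469 at 2.41, *Flicr* at 1.65, *Pou2f1* at 1.06 and *Ccdc22* the lowest at 0.894. Their part in the values of the genes they overlap was not tested.

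The constant regions of the T cell receptor itself were also high in this library, with 4 of 4 at least 2-fold higher and a median of 4.66. *Trbc2* and *Trbc1*, the beta chain constant regions, were at 59.3 and 42.5 there and at 7.56 to 20.3 and 6.84 to 16.7 in the other 13 libraries, and since their sequences are nearly identical, how reads were split between them is uncertain. Of 25 receptor signalling and costimulation genes 20 were at least 2-fold higher (median 2.77), and of 8 naive and memory T genes 7 (median 2.73). The regulatory T list other than *Foxp3* and *Ctla4* had 9 of 13 at least 2-fold higher (median 2.24). The single genes named from here to the end of the account of OVA WT 2 were picked after their values were seen. The most extreme gene of that list was *Izumo1r*, the folate receptor 4 gene of regulatory and some other T cells, at 9.53 in OVA WT 2, 15.2 times the mean of the other OVA WT libraries. Of 10 cytotoxic and NK genes 2 were at least 2-fold higher (median 1.13), and *Gzma*, the granzyme A gene, was at 36.5 in OVA WT 2 and at 66.8 in OVA WT 1.

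B cell and lymphoid stroma genes were also high in the same library, whereas most dendritic cell genes were not. Of 7 dendritic cell genes 2 were at least 2-fold higher there, with a median of 1.03. All 8 B cell genes were at least 2-fold higher, with a median of 5.02, and their summed level was 703 in OVA WT 2 against 94.6 to 221 elsewhere. *Cr2*, the complement receptor 2 gene of B cells and follicular dendritic cells, was at 90.3, which was 12.7 times the mean of the other OVA WT libraries. Of 5 lymphoid stroma genes all were at least 2-fold higher (median 30.9) and 4 were above every other library. *Glycam1*, a product of high endothelial venules in lymph nodes, was at 31.2 in OVA WT 2 and at most 0.272 elsewhere, and *Madcam1* was at 1.90 against at most 0.114. The lymphoid chemokine gene *Ccl19* was at 50.2 against at most 3.26, and *Cxcl13* at 44.8 against at most 11.4. *Ccl21a* was at 34.9 in OVA WT 2 and reached 47.7 in OVA KO 4. The summed level of 6 mucous secretory genes was 1338 in OVA WT 2 and 2130 in OVA KO 3, the highest of all libraries, and 139 to 885 elsewhere. Of 6 thymocyte genes 2 were analysed, and both were highest in OVA WT 2, *Dntt* only by a narrow margin at a low level. Of 3 thymic epithelium genes 1 was at least 2-fold higher in OVA WT 2 (median 0.957), and 0 were above every other library. *Tox*, a factor gene of thymocytes that mature T cells also express, was at 4.99 there against at most 2.22 elsewhere, and *Dntt*, which thymocytes use to add bases to receptor genes, at 0.317 against at most 0.281. The part of these lists in the T cell values of OVA WT 2 was not tested.

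**Figure D2:**
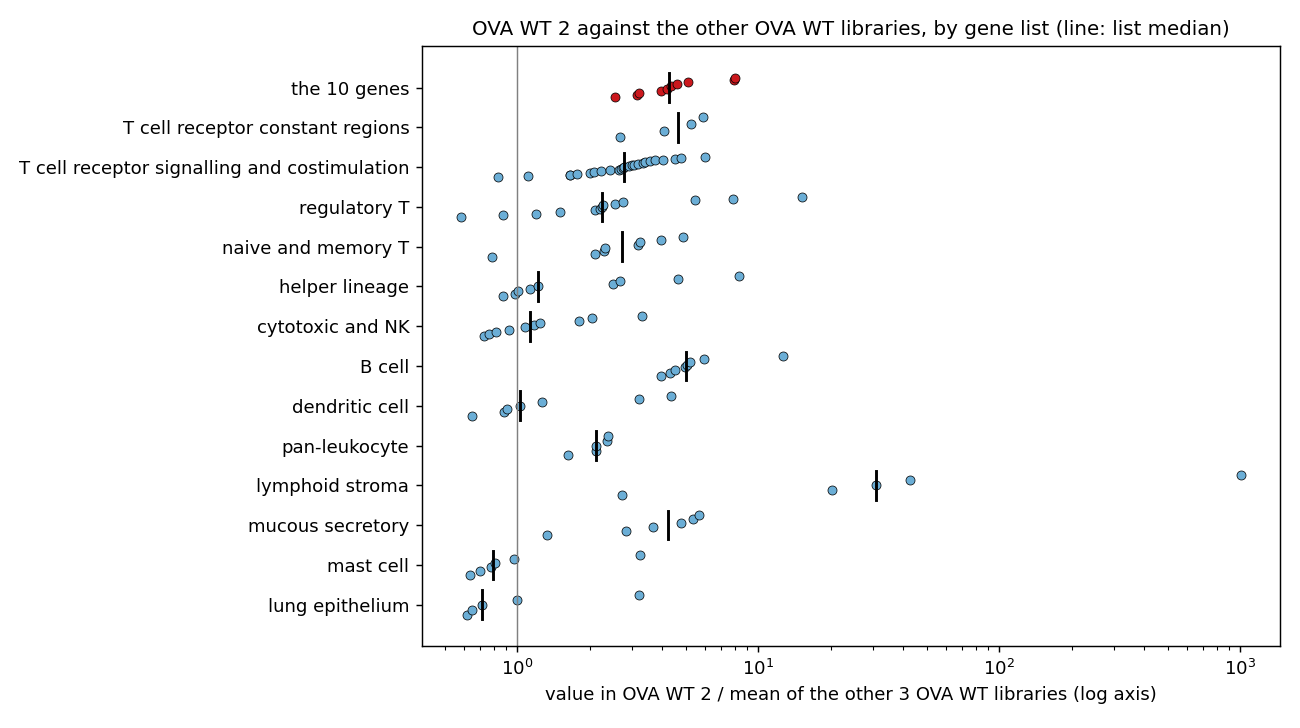
Ratio of the value in OVA WT 2 to the mean of the other 3 OVA WT libraries (log axis), with a point per gene, a row per list and a line at each list's median. The 10 T cell genes (red) have a median of 4.27, B cell genes 5.02, lymphoid stroma genes 30.9, and cytotoxic and NK genes 1.13.

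After OVA in WT lungs *Ctla4* rose, and the other 9 genes had positive changes that did not pass the test with all libraries. Changes are from a linear model in limma on log2(value + 0.502), a scale that understates the change of low genes, with p-values adjusted over all genes tested and a threshold of 0.05. Mean *Ctla4* was 12.3 ± 8.66 (SD, n = 4) after OVA and 1.74 ± 0.322 (SD, n = 3) after saline, and the log2 change was 2.31 (SE 0.36, adjusted p = 0.0015). *Ctla4* was thus the 1 gene of 10 that was called higher, against 4.36% of the genes tested. *Foxp3* had a log2 change of 0.76 (SE 0.24, adjusted p = 0.057), and the other 8 genes ranged from 0.73 for *Cd8b1* to 1.05 for *Cd4* with adjusted p from 0.093 to 0.44. The median over the 10 genes was 0.89 against 0.01 over all genes tested. In that fit 6 of 10 had an unadjusted p under 0.05 in limma, against 11.5% of all genes in this direction. The OVA and saline values of 7 of the 10 did not overlap, higher after OVA, as was the case for 10.3% of all genes.

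Leaving out OVA WT 2 shrank both the changes and their errors. As it held the highest value for each of the 10 genes, leaving it out lowers their OVA WT means by construction. The shares over all genes do not allow for this. The SE of the 10 genes fell from 0.24 to 0.55 to a range of 0.12 to 0.24, and the median change to 0.40. Then 3 of 10 were called higher, against 4.39% of 22682 genes. *Ctla4* was at 7.98 ± 1.63 (SD, n = 3) after OVA, a log2 change of 1.91 (SE 0.24, adjusted p = 0.00063). *Cd3d* rose by 0.50 (SE 0.14, adjusted p = 0.031) and *Foxp3* by 0.46 (SE 0.12, adjusted p = 0.024). *Ccdc22*, which overlaps *Foxp3* at a higher level, was at 15.1 to 16.3 in the same OVA WT libraries and 10.5 to 12.8 in saline WT. Its OVA KO and saline KO values overlapped. *Flicr*, Gm36995 and *Ppp1r3f*, which also overlap *Foxp3*, had OVA WT values that overlapped those of saline WT. The part of reads from *Ccdc22* in the *Foxp3* call was not tested. *Cd247* had a change of 0.50 (adjusted p = 0.065) and *Cd4* of 0.53 (adjusted p = 0.073), whereas *Cd8a* was at 0.26 (adjusted p = 0.43) and *Cd8b1* at 0.03 (adjusted p = 0.94). By the same limma fit, the *Cd3d* call was lost when saline WT 1 or 3 or OVA WT 1 or 3 was also left out (adjusted p = 0.077 to 0.12), and the *Foxp3* call when saline WT 1 or 2 or OVA WT 3 or 4 was (adjusted p = 0.051 to 0.089). The *Ctla4* call held in each of these 13 fits. With columns scaled to equal totals the changes were 0.26 for *Cd3d* (adjusted p = 0.23) and 0.26 for *Foxp3* (adjusted p = 0.15), and neither call held. An unadjusted p under 0.05 was reached in limma by 7 of 10, against 11.4% of all genes, and 7 of 10 did not overlap, against 14% of all genes.

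After OVA in KO lungs the 10 genes again had positive changes. With all 14 libraries none was called higher in limma, against 0.21% of the genes tested, and 2 of 10 had an unadjusted p under 0.05 in that fit, against 4.37%. Mean *Ctla4* was 8.05 ± 2.67 (SD, n = 4) after OVA and 2.38 ± 0.542 (SD, n = 3) after saline, a log2 change of 1.53 (SE 0.36, adjusted p = 0.09). *Cd4* changed by 0.89 (SE 0.41, adjusted p = 0.44) and the other 8 genes by 0.15 to 0.60. The median was 0.47 against -0.01 over all genes. The values of 6 of the 10 did not overlap, higher after OVA, against 5.75% of all genes.

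Leaving out OVA WT 2 changed no KO library, but it changed the shared estimate of the spread. Without it *Cd4* (log2 change 0.89, SE 0.17, adjusted p = 0.037) and *Ctla4* (1.54, SE 0.22, adjusted p = 0.012) were called higher in KO, which is 2 of 10 against 0.357% of the genes tested, and 7 of 10 had an unadjusted p under 0.05 in limma, against 5.82%. *Cd3g* was next with a log2 change of 0.60 (SE 0.13, adjusted p = 0.058), and *Cd8b1* was at 0.15 (SE 0.20, adjusted p = 0.8). The *Cd4* call was lost in 7 of 13 fits that left out a further library (adjusted p = 0.06 to 0.2), among them each of the saline KO libraries, and the *Ctla4* call without saline KO 2 (adjusted p = 0.056) or saline KO 3 (adjusted p = 0.084). OVA KO 3, the other library rich in mucous secretory genes, was the lowest OVA KO library for *Cd3d*, *Cd3e*, *Cd3g*, *Cd247*, *Cd4*, *Cd8a* and *Lck*. With both OVA WT 2 and OVA KO 3 left out, limma called 5 of the genes higher in KO, namely *Cd3e*, *Cd3g*, *Cd4*, *Lck* and *Ctla4*, against 0.709% of the genes tested. Since OVA KO 3 was the lowest OVA KO library for *Cd3e*, *Cd3g*, *Cd4* and *Lck*, leaving it out raises their OVA KO means by construction. In WT it then called 6, namely *Cd3d*, *Cd3g*, *Cd247*, *Cd4*, *Foxp3* and *Ctla4*, against 4.92% of the genes tested.

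The OVA responses of the genotypes were compared directly as a difference of differences. None of the 10 genes was called, with adjusted p from 0.76 to 0.96 in limma, against 0.00438% of the genes tested that were called higher and 0% called lower, and 0 of 10 had an unadjusted p under 0.05 in that fit, against 3.76% higher and 3.26% lower. With all libraries every difference was negative, from -0.78 for *Ctla4* to -0.16 for *Cd4*, with SE of 0.34 to 0.78. Without OVA WT 2 they ran from -0.37 for *Ctla4* (SE 0.32, 95% interval up to 0.32) to 0.36 for *Cd4* (SE 0.25, 95% interval up to 0.90), 6 positive and 4 negative. Again 0 were called, against 0.00441% higher and 0% lower, and 0 had an unadjusted p under 0.05 in limma, against 5.12% higher and 3.47% lower. The calls of *Cd3d* and *Foxp3* in WT and of *Cd4* in KO are therefore not shown to differ between genotypes.

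Between OVA KO and OVA WT none of the 10 genes was called with all libraries, against 0.184% of the genes tested that were called higher and 0.206% lower in KO. Log2 differences in limma ran from -0.42 for *Ctla4* to 0.03 for *Cd3g*, 0 of 10 had an unadjusted p under 0.05, against 8.59% of genes higher and 9.19% lower. The KO values of every gene overlapped those of WT, whereas 3.09% of all genes lay wholly higher and 4.04% wholly lower in KO. The sign of 5 of the 10 genes, *Cd3d*, *Cd247*, *Cd8a*, *Cd8b1* and *Lck*, turned when OVA WT 2 was left out. Of the 10 genes 8 were then higher in KO, led by *Cd3e* (log2 difference 0.58, SE 0.18, adjusted p = 0.13), *Cd3g* (0.53, SE 0.13, adjusted p = 0.085) and *Cd4* (0.53, SE 0.17, adjusted p = 0.14), whereas *Foxp3* was at -0.05 and *Ctla4* at -0.02. Still none passed the threshold, against 0.181% of genes called higher and 0.141% lower, and 6 of 10 had an unadjusted p under 0.05 in limma, against 11% of all genes higher and 8.79% lower. *Cd3d*, *Cd3e* and *Cd3g* did not overlap between the groups, 3 of 10 against 6.64% of all genes. OVA WT 2 was the highest library for each of the 10 genes and for 15.3% of all genes tested. Leaving it out therefore lowers the OVA WT means of the 10 by construction, and the shares over all genes do not allow for this. The *Cd3g* difference passed in limma when OVA KO 1 (0.51, adjusted p = 0.047) or OVA KO 3 (0.66, adjusted p = 0.022) was also left out, or with columns scaled to equal totals (0.67, adjusted p = 0.045). Of all genes tested 5.37%, 0.177% and 1.36% were called higher in KO in those fits. As OVA KO 3 was the lowest OVA KO library for *Cd3g*, leaving it out raises the OVA KO mean by construction. The mean of *Cd3g* was 11.4 ± 1.95 (SD, n = 4) in OVA KO and 7.66 ± 0.317 (SD, n = 3) in OVA WT without OVA WT 2.

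Saline KO lungs had higher means than saline WT lungs for all 10 genes, by 1.14-fold for *Cd4* to 1.38-fold for *Cd3d*. None was called in limma (adjusted p = 1 with all libraries), against 0.00876% of the genes tested that were called higher and 0.0745% lower, and 0 of 10 had an unadjusted p under 0.05 in that fit, against 1.64% higher and 1.68% lower. Without OVA WT 2 again none was called, against 0.0132% higher and 0.0794% lower, and 1 of 10, *Cd3d*, had an unadjusted p under 0.05 in limma, against 2.17% higher and 1.85% lower. The values of *Cd3d*, *Cd3e*, *Cd3g* and *Lck* did not overlap, higher in saline KO, which is 4 of 10 against 5.81% of all genes. The saline libraries are the same in both settings, and the largest difference was that of *Cd3d* at 0.44 (SE 0.40 with all libraries and 0.14 without OVA WT 2, where the adjusted p was 0.95).

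**Figure D3:**
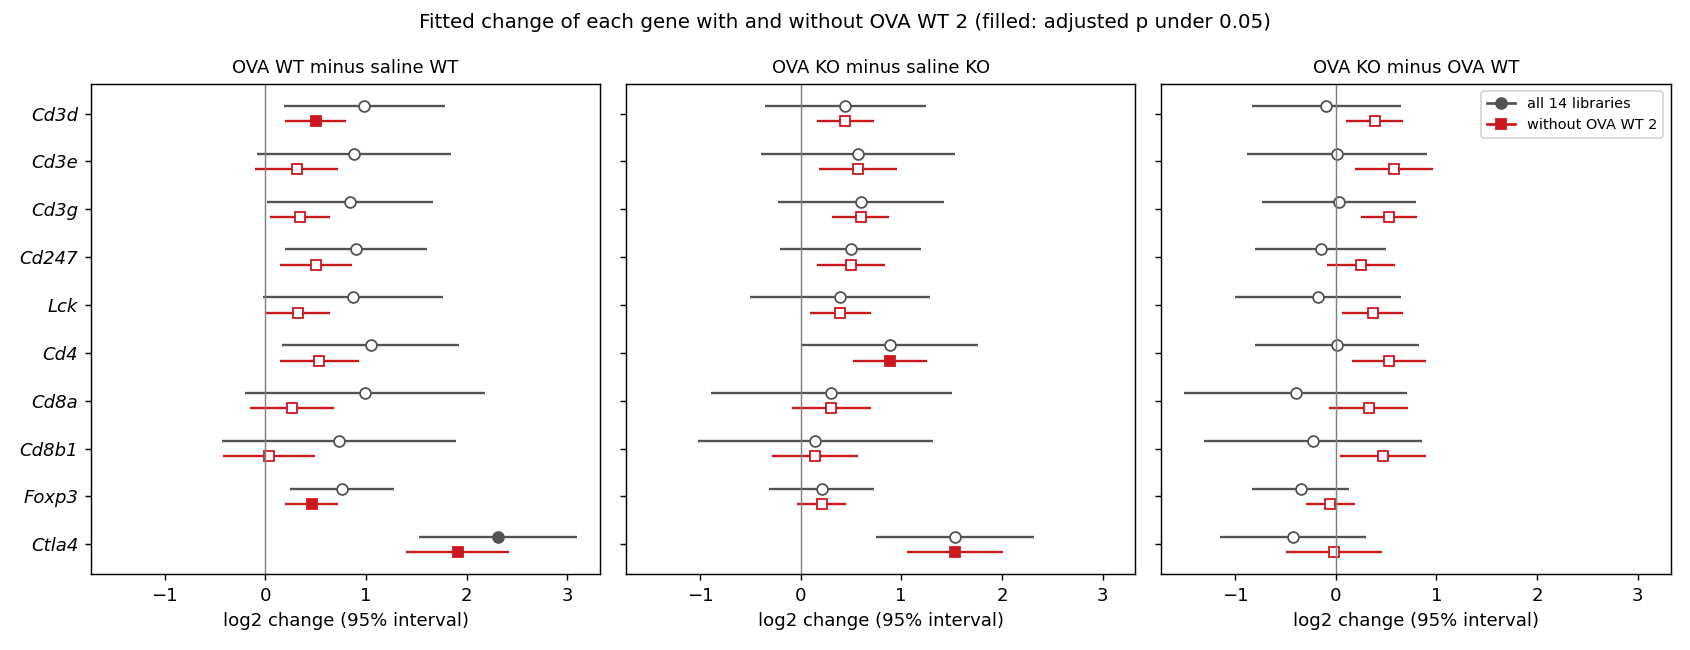
Log2 change of each gene with its 95% interval from limma for OVA in WT, OVA in KO and KO against WT under OVA, with all 14 libraries (circles) and without OVA WT 2 (squares), filled where the adjusted p was under 0.05. In the comparison of genotypes 3 of 10 changes are positive with all libraries and 8 of 10 without OVA WT 2, and intervals are narrower without it.

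Ratios of 2 genes within a library do not depend on how that library was scaled. The ratio of *Ctla4* to *Foxp3* was 1.37, 1.13 and 0.782 in saline WT, 2.92, 4.09, 2.95 and 4.02 in OVA WT, 1.39, 1.08 and 1.19 in saline KO and 4.61, 3.75, 2.84 and 2.57 in OVA KO. The saline and OVA values did not overlap in either genotype, and OVA WT 2 lay within the range of the OVA KO libraries. Geometric means were 1.07 after saline and 3.45 after OVA in WT (log2 difference 1.69, 2-sided exact permutation p = 0.0286) and 1.21 and 3.35 in KO (1.47, exact permutation p = 0.0286), the smallest p that 3 libraries against 4 can give. After adjustment over the 20 ratio comparisons made, p was 0.286 for both. Without OVA WT 2 the OVA WT mean was 3.26 and the exact permutation p 0.1, again the smallest possible with 3 against 3. The genotypes differed by -0.04 under OVA (exact permutation p = 0.8) in this ratio.

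The ratio of *Foxp3* to *Cd3e* was 0.293, 0.170, 0.372 and 0.361 in OVA WT and 0.239, 0.172, 0.307 and 0.163 in OVA KO, and 0.243, 0.239 and 0.411 in saline WT and 0.319, 0.286 and 0.215 in saline KO. OVA KO 4 and OVA WT 2 had the lowest ratios. Under OVA the KO mean was 0.213 and the WT mean 0.286 with all libraries (log2 difference -0.43, exact permutation p = 0.286) and 0.340 without OVA WT 2 (-0.68, exact permutation p = 0.0857), and neither passed the test. The ratio of *Cd8a* to *Cd4* was 0.934, 1.71, 0.821 and 1.09 in OVA WT and 0.642, 1.28, 0.817 and 0.650 in OVA KO, against 0.949, 1.31 and 1.24 in saline WT and 1.39, 1.16 and 1.24 in saline KO. OVA WT 2 had the highest value of all. In KO the mean was 1.26 after saline and 0.813 after OVA, a difference that did not pass the exact permutation test (p = 0.114). Of the 20 comparisons, which also took in the ratios of *Cd8b1* to *Cd8a* and of *Lck* to *Cd3e*, 2 had an unadjusted exact permutation p under 0.05 and 0 after adjustment.

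**Figure D4:**
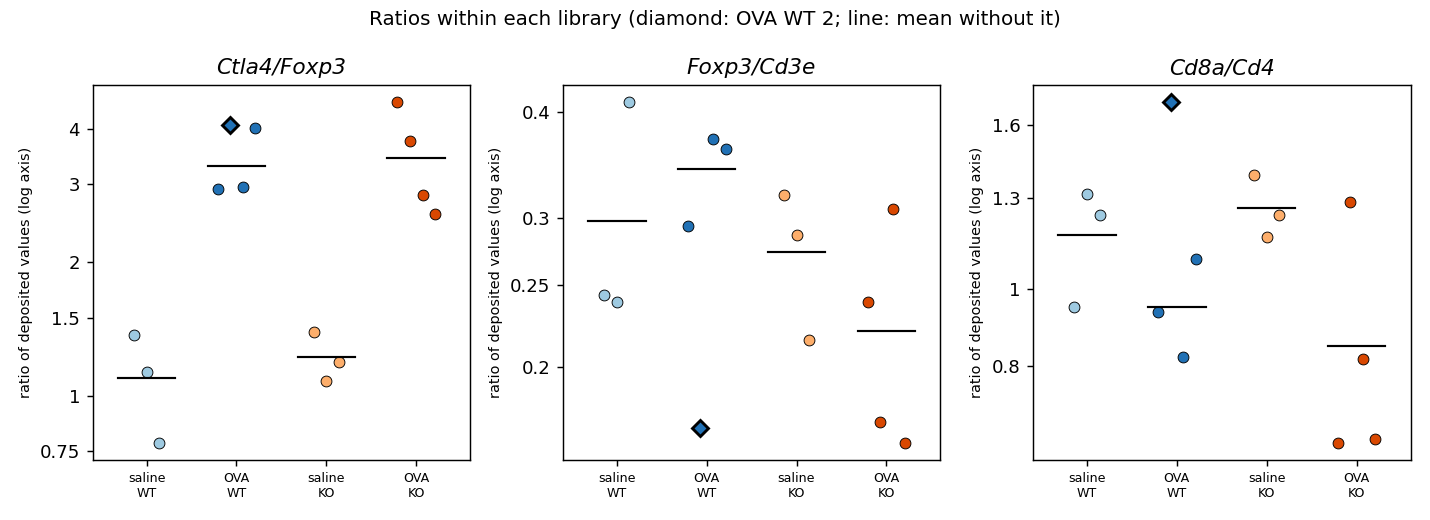
Ratios of *Ctla4* to *Foxp3*, *Foxp3* to *Cd3e* and *Cd8a* to *Cd4* within each library (log axes), with OVA WT 2 as a diamond and the arithmetic mean of the other libraries of a group as a line. *Ctla4* to *Foxp3* lies at 0.782 to 1.39 in saline and 2.57 to 4.61 in OVA libraries, whereas the other ratios overlap between groups.

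Levels can be compared between genes only per length, here as the deposited value per kilobase of exon (GENCODE M21). In saline WT the order was *Lck* at 3.38 ± 0.312 (SD, n = 3), *Cd3d* at 3.21 ± 0.580, *Cd3g* at 1.82 ± 0.165, *Cd8b1* at 1.57 ± 0.341, *Cd3e* at 1.40 ± 0.269, *Cd8a* at 1.39 ± 0.275, *Cd4* at 1.07 ± 0.0930, *Ctla4* at 0.748 ± 0.138, *Cd247* at 0.674 ± 0.150 and *Foxp3* at 0.354 ± 0.0378. *Lck* and *Cd3d*, the run from *Cd3g* to *Cd4*, and *Ctla4* and *Cd247* were each within the sum of their neighbours' SD. *Foxp3* was last in all groups. *Ctla4* stood at rank 8 of 10 in saline WT and saline KO (1.02 ± 0.233 per kilobase, n = 3), at rank 3 in OVA WT without OVA WT 2 (3.43 ± 0.700, n = 3) and at rank 4 in OVA KO (3.45 ± 1.15, n = 4). *Cd3d* and *Lck* held the first ranks in every group, at 4.62 ± 0.381 and 4.29 ± 0.559 in OVA WT without OVA WT 2 and at 6.15 ± 0.856 and 5.63 ± 1.03 in OVA KO.

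Calls among other genes of the pathway stand beside the 4.36% of all genes called higher after OVA in WT and the 0.21% in KO (4.39% and 0.357% without OVA WT 2). Counts of list genes at an unadjusted p under 0.05 in limma take in both directions. Of all genes tested, 11.5% in WT and 4.37% in KO reached that p as higher (11.4% and 5.82% without OVA WT 2). In the difference of responses 3.76% did as higher and 3.26% as lower (5.12% and 3.47% without it). Of the 25 receptor signalling and costimulation genes, 6 were called higher after OVA in WT (8 without OVA WT 2) and 0 lower, with a median of 0.62 (0.30 without it) against 0.01 (0.00) over all genes tested, and 14 (13) had an unadjusted p under 0.05 in limma. *Pdcd1*, the inhibitory receptor PD-1, rose by 1.24 (SE 0.31, adjusted p = 0.022), *Ubash3a*, a phosphatase that restrains receptor signals, by 0.99 (SE 0.29, adjusted p = 0.042), *Vav1*, an exchange factor downstream of the receptor, by 0.88 (SE 0.22, adjusted p = 0.023) and *Lcp2*, the adaptor SLP-76, by 0.87 (SE 0.18, adjusted p = 0.0092) on the log2 scale in limma. These stood without OVA WT 2 at 0.89, 0.66, 0.62 and 0.69 and were still called. In KO 0 of the 25 were called with all libraries, where 2 had an unadjusted p under 0.05 in limma, and 1 without OVA WT 2, the costimulatory receptor gene *Cd28* (0.84, SE 0.16, adjusted p = 0.032). Without OVA WT 2 the number in KO with an unadjusted p under 0.05 in limma was 18 of 25. The median in KO was 0.40 in both settings, against 0.30 in WT without OVA WT 2. In the difference of responses between genotypes 0 of the 25 were called in either setting, with 0 at an unadjusted p under 0.05 in limma and 1 without OVA WT 2, so the counts of calls in WT and KO are not shown to differ.

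Of the 13 other regulatory T genes, 3 were called higher in WT in both settings and 0 lower. These were *Tnfrsf9*, the 4-1BB gene of activated T cells and other leukocytes (log2 change 2.61, SE 0.32, adjusted p = 0.00039), *Tnfrsf4*, the OX40 gene (1.02, SE 0.28, adjusted p = 0.032), and *Tigit*, an inhibitory receptor gene (0.99, SE 0.24, adjusted p = 0.018). *Tnfrsf9* was at 1.26, 1.87 and 1.80 in saline WT, 9.71, 14.9, 18.9 and 8.73 in OVA WT, 1.83, 2.04 and 1.80 in saline KO and 8.37, 4.31, 8.37 and 3.07 in OVA KO, so that, as with *Ctla4*, every OVA library was above every saline library, and OVA WT 3 rather than OVA WT 2 was the highest. In KO its change was 1.35 (SE 0.32, adjusted p = 0.09 in limma), and 0 of the 13 were called in either setting, with 1 at an unadjusted p under 0.05 (4 without OVA WT 2). The list's median change was 0.67 in WT (0.19 without OVA WT 2) and 0.28 in KO, and in the difference of responses 0 of the 13 were called, with 1 at an unadjusted p under 0.05 in limma.

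Of the 4 receptor constant regions and the 8 naive and memory T genes none was called after OVA in either genotype or setting, and in each of these lists 1 gene in WT had an unadjusted p under 0.05 in limma with all libraries. In KO the number at an unadjusted p under 0.05 in limma went from 0 to 2 constant regions and from 0 to 1 naive and memory gene when OVA WT 2 was left out. *Trbc2* changed by 0.89 in WT (SE 0.45, adjusted p = 0.23) and 0.47 in KO (SE 0.45, adjusted p = 0.75), and by 0.31 in WT without OVA WT 2 (SE 0.16, adjusted p = 0.24). *S1pr1*, a receptor gene of lymphocyte egress that endothelium also expresses, was at 224 to 457 and changed by 0.24 in WT (SE 0.20, adjusted p = 0.5). Of 9 helper lineage genes *Gata3*, the type 2 helper and innate lymphoid factor gene, was the 1 called higher in WT (0.58, SE 0.14, adjusted p = 0.017), and it stood at 0.62 without OVA WT 2. Of the same 9 genes 1 was called lower in WT in each setting. An unadjusted p under 0.05 in limma was reached in WT by 5 of them (4 without OVA WT 2). In KO 0 of the 9 were called in either setting, with 0 at an unadjusted p under 0.05 in limma (4 without OVA WT 2), and in the difference of responses 0 were called, with 3 at an unadjusted p under 0.05 (4 without OVA WT 2). Of the 10 cytotoxic and NK genes 3 rose in WT, the granzyme genes *Gzma* (0.80) and *Gzmb* (0.76) and the NK receptor gene *Klrd1* (0.53), and 4 without OVA WT 2. In KO 0 were called in either setting, where 6 had an unadjusted p under 0.05 in limma (7 without OVA WT 2). The median change of this list was 0.66 in WT (0.54 without OVA WT 2) and 0.50 in KO. In the difference of responses 0 were called and 0 had an unadjusted p under 0.05 in limma in either setting. The counts of calls in WT and KO are therefore not shown to differ. Of the 8 B cell genes 0 were called in WT, with 1 at an unadjusted p under 0.05 in limma, and 0 in KO, with 0 at that p (3 without OVA WT 2), and their median WT change fell from 0.56 to 0.02 when OVA WT 2 was left out, whereas that of the 10 T cell genes fell from 0.89 to 0.40.

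The genes whose pattern over the 14 libraries was most like that of the 10 were *Skap1* (Pearson r 0.989 with their mean standardized log2 value), a T cell adaptor gene, *Klhl6* (0.983), *Traf3ip3* (0.978), *Ikzf1* (0.978), *Rasal3* (0.977), *Rasgrp1* (0.976), *Icos* (0.975), *Apol7e* (0.975), *Cd5* (0.973) and *Septin1* (0.973). These values share OVA WT 2, which was the highest library for each of them. Over the 13 other libraries the likest were *Cd6* (0.968), *Skap1* (0.961), *Ctsw* (0.947), *Apol7e* (0.943) and *Cd28* (0.942). Each of the 10 genes is itself part of their mean standardized value, which raises its r by construction. Among the 10 themselves r was lowest for *Ctla4* over 14 libraries (0.836) and for *Foxp3* (0.659), *Cd8b1* (0.688) and *Ctla4* (0.783) over 13, and highest for *Lck* (0.986) over 14 and *Cd3d* (0.959) over 13. These coefficients describe libraries of 4 groups and share each library's depth and composition.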

How the data were processed

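Lung RNA of 14 libraries was sequenced from KAPA mRNA libraries. The submitters' processing notes name STAR, Partek and the mm10 build, with versions and normalization not given in the sources used here. The deposited normalized counts were treated as a signal, since they are not whole reads and the columns sum to 907121 to 1148440. In each column 71.9% to 74.6% of low values were within 0.1 of a whole multiple of the lowest, from which depth was estimated.

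Genes at 0.2 ppm or more in 3 libraries (22828) were fitted as log2(value + 0.502) to the 4 groups in limma 3.58.1 (R 4.3.3; trend, robust), 2-sided, with Benjamini-Hochberg adjustment over all genes and a threshold of 0.05. Partek's own test was not run. Ratios were compared by exact permutation. The fit was tested on simulated data with independent noise for each gene, which held no library extreme for many genes at once. The 10 genes were named in full, of other lists up to 4 called genes with the largest WT change or, where none was called, up to 2 with the highest mean, and the 10 genes most like the members by Pearson r. Predicted genes and receptor or immunoglobulin segments were left out of the last. Results of 2 listed genes are not reported here. Members and lists were chosen with earlier results of these data known. Alternatives covered scaling, pseudocount, filter, trend, weights, groups fitted, replicate block and each library left out, and, added after the data were seen, subtraction of the 1-read offset and further settings without OVA WT 2. Nothing in the labels says that replicates were separate animals, and p-values then rest on a spread that may be technical.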

Additional observations from a re-analysis of the deposited data

Results flagged for a closer look

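Each group of 4 libraries was searched for a library far from the other 3, measured as the gap to its nearest neighbour as a share of the group's range. Chance flags about 1 in 20 separate groups. Of 20 groups of the T cell genes 9 were flagged, and all 9 were OVA WT 2. That library had already been singled out for these genes, whose values go together over the libraries. The 9 flags therefore describe 1 library and are not to be set against the chance rate. The share was 0.952 for *Cd3d*, 0.973 for *Cd3e*, 0.974 for *Cd3g*, 0.873 for *Cd247*, 0.935 for *Cd4*, 0.99 for *Cd8a*, 0.925 for *Cd8b1*, 0.936 for *Lck* and 0.864 for *Foxp3*. *Ctla4* did not reach the limit.

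The 5 lymphoid stroma genes, searched after their values were seen, gave 7 flags in 10 groups. OVA WT 2 was far above the other OVA WT libraries, with shares of 0.999 for *Glycam1*, 0.952 for *Madcam1*, 0.992 for *Cxcl13* and 0.983 for *Ccl19*. *Ccl21a* did not reach the limit in OVA WT. Within OVA KO, OVA KO 3 stood apart for *Glycam1* (share 0.842, value 0.272) and OVA KO 1 for *Madcam1* (share 0.937, value 0.0751), at values far under those of OVA WT 2, and OVA KO 4 for *Ccl21a* (share 0.843, value 47.7), above the 34.9 of OVA WT 2.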

How the results depend on the processing

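With all libraries the *Ctla4* call after OVA in WT held in each of its 26 alternatives (log2 change 1.77 to 2.55). The number of the 10 genes called in WT was 1 and became 2 with a pseudocount of 0.1 ppm (4.52% of all genes called higher) or array weights (8.33%) and 6 without OVA WT 2 and OVA KO 3 (4.92%), in KO it went from 0 to 1 with array weights (0.929%) and 5 without that pair (0.709%), and between genotypes under OVA from 0 to 1 without that pair (0.177%). Leaving out each library gave 1 to 3 in WT (1.68% to 4.84% of all genes) and 0 to 2 in KO (0.0484% to 0.391%). Without OVA WT 2, scaling to equal column totals took the WT count from 3 to 1 (1.87% of all genes) and the genotype count from 0 to 1 (*Cd3g*; 1.36%), and leaving out a further library gave 1 to 6 in WT (2.15% to 5.21%), 0 to 5 in KO (0.0576% to 0.709%) and 0 to 1 between genotypes (0.0354% to 5.37%). That scaling shifted the median of all genes by -0.18 in WT (-0.20 without OVA WT 2), by 0.096 (0.12) between genotypes under OVA and by 0.11 (0.14) in the difference of responses. The count of ratios with unadjusted exact p under 0.05 went from 2 to 1 without any one library, since fewer libraries raise the smallest p.

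The genotype difference under OVA turned sign with array weights for *Cd3d* (0.30), *Cd247* (0.19), *Cd8a* (0.25), *Cd8b1* (0.37) and *Lck* (0.28), and without OVA WT 2 and OVA KO 3 for *Cd3d* (0.45), *Cd247* (0.35), *Cd8a* (0.48), *Cd8b1* (0.54), *Lck* (0.50) and *Ctla4* (0.051). Equal column totals turned *Cd3d* (0.023), and a pseudocount of 2 ppm *Cd3e* (-0.0139) and *Cd4* (-0.0106). Without OVA WT 2, equal column totals turned *Foxp3* (0.073) and *Ctla4* (0.12), and *Cd8b1* after OVA in WT (-0.18), and median-of-ratios scaling turned *Ctla4* (0.00386). Leaving out each library in turn moved this difference from -0.30 to 0.39 for *Cd3d*, -0.21 to 0.58 for *Cd3e*, -0.15 to 0.53 for *Cd3g*, -0.36 to 0.25 for *Cd247*, -0.22 to 0.53 for *Cd4*, -0.66 to 0.33 for *Cd8a*, -0.56 to 0.47 for *Cd8b1* and -0.39 to 0.37 for *Lck*, and, with OVA WT 2 already out, from -0.12 to 0.017 for *Foxp3* and -0.21 to 0.12 for *Ctla4*, and the OVA change in WT from -0.14 to 0.19 for *Cd8b1*. The cause was not tested.

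Replicate numbers were not used to pair the libraries. Deviations of same-numbered libraries of different groups correlated at -0.32 to 0.39, over 0.1 in 5 of 19 pairs. Those of differently numbered libraries correlated at -0.44 to 0.46, over 0.1 in 15 of 54 pairs. Whether some libraries were paired is not settled by these values. With the replicate block 1 gene was called in WT and 0 in KO, as without it. Depth limits most the genes at the lowest values, *Foxp3* and *Ctla4* in saline libraries.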
